A study of Mus musculus with 6 samples.

Results

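The BH3-only genes encode the trigger proteins of the mitochondrial death pathway, and 8 of them were followed here: Bbc3 (PUMA), Pmaip1 (NOXA), Bid, Bad, Bik, Bmf, Hrk and Bcl2l11 (BIM). They were taken by gene symbol, whatever their values, from a table of 24062 genes, which lists all 8. The libraries profile messenger RNA of Kit-positive bone marrow cells, which the series description also calls lineage-negative, from C57BL/6 mice. The KO group was 3 Mx1Cre+ mice with floxed Ints11 alleles, and was set against 3 WT littermates. INTS11 is the endonuclease of the Integrator complex, which cuts nascent transcripts, among them small nuclear RNAs. All 6 mice are labelled as sorted 4 days after poly(I:C), an RNA mimic that switches on the interferon-driven Mx1 promoter, so WT cells had met the interferon stimulus as well. Mx1-Cre acts in many interferon-responsive cells, not in one blood lineage. The sources used here do not say whether the WT littermates carried the transgene, how old the mice were or which exons are floxed. Each library is 1 mouse, and libraries are named by genotype and mouse number.

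BH3-only proteins carry a single short helix, the BH3 domain, and little else in common. They act by docking that helix into the groove of other BCL2 family proteins. Some of them occupy the survival proteins BCL2, BCL-XL and MCL1, and some can also switch on the pore formers BAX and BAK, after which cytochrome c leaves the mitochondrion and caspases are activated. In blood progenitors PUMA is known as a main p53-driven killer after DNA damage, and BIM limits lymphocyte and granulocyte numbers.

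The sequence that defines the group is shown first. In the protein-coding transcripts of 7 genes the translated reading frame was searched for leucine, any 3 residues, then glycine, alanine or serine, then aspartate. Pmaip1 was not searched, so its absence below says nothing about its sequence. Each of the 7 genes held the pattern at 1 genomic place only, in a single exon. The 33 coding bases around it are given 5′ to 3′ from GENCODE M21 on GRCm38, with the leucine codon and the final pair of codons (small residue and aspartate) in capitals.
Bbc3: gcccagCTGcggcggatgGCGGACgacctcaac
Bcl2l11: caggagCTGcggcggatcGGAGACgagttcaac
Bad: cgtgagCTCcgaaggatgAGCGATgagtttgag
Bid: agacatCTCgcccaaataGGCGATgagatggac
Bik: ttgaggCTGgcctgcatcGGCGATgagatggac
Bmf: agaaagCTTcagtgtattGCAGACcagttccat
Hrk: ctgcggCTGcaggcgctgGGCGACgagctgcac
These exonic stretches lie at chr7:16313767-16313799 (Bbc3), chr2:128147144-128147176 (Bcl2l11), chr19:6950786-6950818 (Bad) and chr15:83543078-83543110 (Bik), all on the forward strand. That of Hrk is at chr5:118169885-118169917, also forward, and those of Bid (chr6:120897289-120897321) and Bmf (chr2:118545100-118545132) are on the reverse strand. The closest pair was Bbc3 and Bcl2l11, with 24 of 33 bases identical (72.7%), followed by Bid and Bik with 22 (66.7%). The lowest identity, 15 of 33 bases (45.5%), was that of Bid and of Bik with Bbc3 and with Bmf.

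Depth and sample facts apply to all members. Total counts were 127011537 to 142983542 in KO and 124074531 to 166860739 in WT libraries. Levels are given as CPM, the count scaled to the library total after TMM normalisation. Ints11, listed under its older symbol Cpsf3l, stood at 64.3, 58.3 and 60.2 CPM in KO_339, KO_340 and KO_345, against 73.8, 92.3 and 78.9 CPM in WT_341, WT_343 and WT_344 (log2 change -0.42, adjusted p = 0.0174, edgeR's quasi-likelihood test), and this call was lost without KO_340 (adjusted p = 0.0557) or KO_345 (adjusted p = 0.0541). Kit itself averaged 228 ± 9.28 CPM in KO and 211 ± 11.5 CPM in WT libraries. Of 15742 genes tested, 35.9% passed an adjusted p of 0.05, 16.0% higher and 19.9% lower in KO. The higher share of the calls was 44.5% under TMM, 64.2% under upper-quartile scaling and 58.8% when libraries were scaled by their totals alone. The median log2 change over the tested genes was 0.01 under TMM, 0.15 under upper-quartile scaling and 0.11 by totals. The groups did not overlap, with all KO libraries above all WT libraries, for 25.6% of tested genes, and with all KO below all WT for 28.4%.

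Of the 8 BH3-only genes, 7 passed the filter on low counts and were tested, and Hrk did not pass. Bbc3 and Bcl2l11 rose in KO, Bid fell, and Pmaip1, Bad, Bmf and Bik did not pass the test. The count of 2 higher and 1 lower among 7 stands beside 16.0% and 19.9% over all tested genes; nothing particular to the group is read from these counts. The median log2 change of the 7 was 0.53, against 0.01 over all tested genes; it is the value of Bmf, which was not called, and was 0.34 without WT_343 and 0.30 with a covariate for neutrophil markers, described with those markers.

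**Figure D1:**
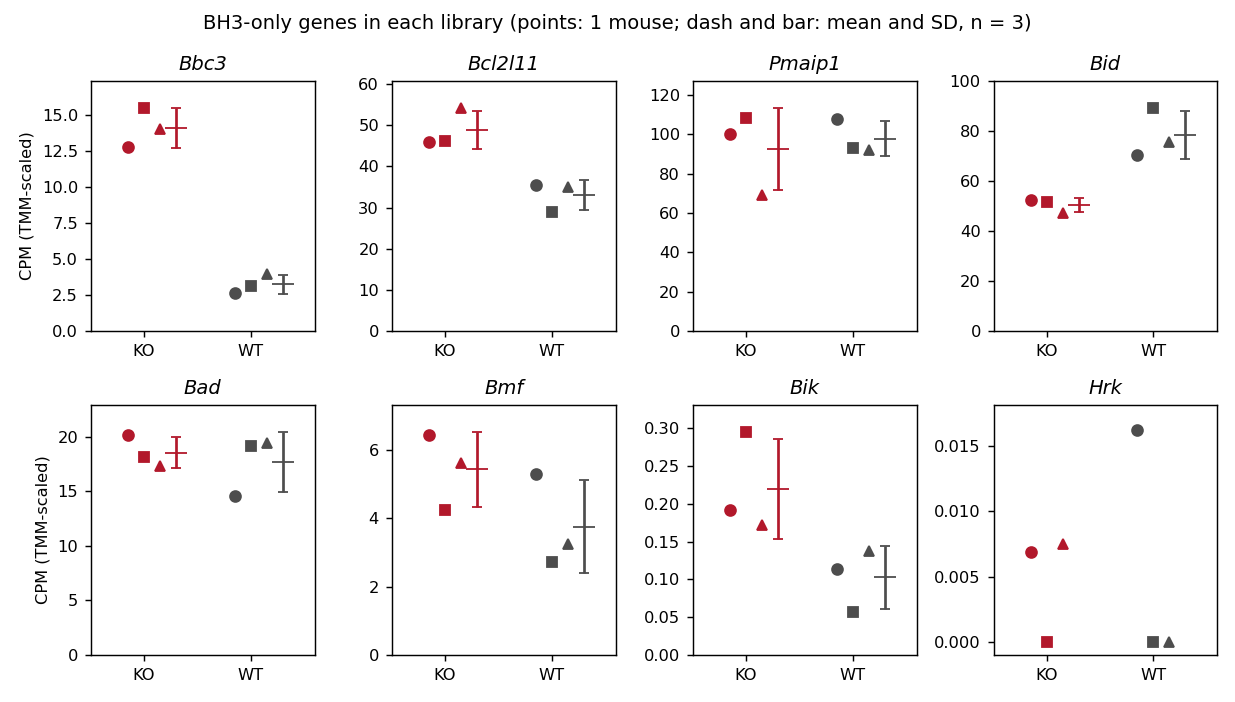
Level of each BH3-only gene (vertical axis, TMM-scaled CPM, linear and different in each panel) in the 3 KO (red) and 3 WT (grey) libraries; each point is 1 mouse, and dash and bar give mean and SD (left out for Hrk, which had 0 to 2 counts). Every KO point lies above every WT point for Bbc3, Bcl2l11 and Bik and below for Bid.

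Bbc3, which encodes PUMA, a BH3-only protein that binds all the main survival proteins, had the largest change of the group. Its levels were 12.7, 15.5 and 14.02 CPM in KO_339, KO_340 and KO_345, against 2.64, 3.16 and 3.98 CPM in WT_341, WT_343 and WT_344. The lowest KO library was above the highest WT library, and the gap between them was wider than the spread within either genotype. Bbc3 rose 4.32-fold (95% interval 3.23 to 5.77; log2 change 2.11 ± 0.18, SE; adjusted p = 0.00144 by edgeR's quasi-likelihood test, Benjamini-Hochberg over all tested genes). It ranked 44th by p and 363rd by size of rise among the 15742 tested genes. Raw counts were 1858, 2041 and 1871 in KO and 326, 499 and 578 in WT libraries.

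Bcl2l11, which encodes BIM, a BH3-only protein that binds all the main survival proteins and can switch on BAX and BAK, also rose, by less. It stood at 46.04, 46.2 and 54.2 CPM in the KO libraries (in the order above), against 35.5, 28.9 and 34.9 CPM in the WT libraries. All KO libraries lay above all WT libraries, with KO_345 the highest. The rise was 1.48-fold (95% interval 1.23 to 1.78; log2 change 0.56 ± 0.11, SE; adjusted p = 0.0116, same test). BIM is made as several splice forms, and the table gives 1 count per gene, so the forms were not separated.

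Bid encodes a BH3-only protein that is cut by caspase 8, after which its truncated form moves to mitochondria, and it was the member that fell. KO libraries held 52.5, 51.8 and 47.4 CPM, against 70.6, 89.4 and 75.7 CPM in WT libraries. The groups did not overlap, and the WT libraries spread more widely than the KO libraries. The log2 change was -0.63 ± 0.10 (SE), a level of 0.644-fold (95% interval 0.545 to 0.761; adjusted p = 0.00606, same test). The last 913 bases of the Bid locus overlap Bcl2l13, on the opposite strand. Bcl2l13, itself a BCL2 family relative, had 68.6 ± 3.18 CPM in KO and 107 ± 3.48 CPM in WT libraries (log2 change -0.65, adjusted p = 0.00268, same test). The library kit marks strand, but how strand was treated when reads were counted is not stated, so reads shared by an overlapping pair cannot be told apart.

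Pmaip1, which encodes NOXA, a BH3-only protein that mainly neutralises MCL1 and is itself a known p53 target, showed no call. It was at 100, 108 and 68.9 CPM in KO libraries and at 108, 92.8 and 92.07 CPM in WT libraries. KO_345 was the lowest of all 6 libraries, and the other KO libraries lay within or just above the WT range. The log2 change was -0.08 ± 0.17 (SE; adjusted p = 0.736, same test), with a 95% interval of 0.725 to 1.24-fold that leaves out a change of the size seen for Bbc3. Without KO_345 the log2 change was 0.12 (adjusted p = 0.449).

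Bad encodes a BH3-only protein that survival kinases hold inactive by phosphorylation. Its KO levels of 20.1, 18.1 and 17.3 CPM overlapped the WT levels of 14.5, 19.2 and 19.4 CPM. The log2 change was 0.07 ± 0.14 (SE; 95% interval 0.840 to 1.30-fold; adjusted p = 0.726, same test). The first 620 bases of the Bad locus overlap Gpr137 on the opposite strand, which averaged 19.98 ± 1.1 CPM in KO and 14.2 ± 0.947 CPM in WT libraries (adjusted p = 0.0105, same test).

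Bmf, whose protein is held on the cytoskeleton by a dynein light chain, had 6.44, 4.25 and 5.61 CPM in KO libraries, against 5.30, 2.73 and 3.25 CPM in WT libraries. KO_340 lay below WT_341, so the groups overlapped. The log2 change was 0.53 ± 0.28 (SE; 95% interval 0.919 to 2.28-fold) and did not pass (adjusted p = 0.168, same test). Without WT_341 it was 0.85 and passed (adjusted p = 0.0126).

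Bik and Hrk were the scarce members. Bik, which encodes a BH3-only protein of the endoplasmic reticulum membrane, had 28, 39 and 23 raw counts in KO libraries, against 14, 9 and 20 in WT libraries. That is 0.192, 0.296 and 0.172 CPM in KO and 0.113, 0.0569 and 0.138 CPM in WT, and all KO libraries lay above all WT libraries, as 25.6% of tested genes did. The log2 change of 1.10 ± 0.46 (SE; 95% interval 1.03 to 4.48-fold) did not pass (adjusted p = 0.0947, same test). Hrk, best known from neurons, had 1, 0 and 1 counts in KO and 2, 0 and 0 counts in WT libraries, at or under the 3 counts that a count of 0 allows (0.019 to 0.0243 CPM per library), so no fold is given.

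Levels of different genes were compared per kilobase of annotated exon. The order in WT libraries was Pmaip1 (35.7 ± 3.25 CPM per kb), Bid (22.1 ± 2.74), Bad (6.92 ± 1.07), Bcl2l11 (4.12 ± 0.459), Bbc3 (1.53 ± 0.316), Bmf (0.716 ± 0.258), Bik (0.0645 ± 0.026) and Hrk (SD, n = 3). In KO libraries Pmaip1 (33.9 ± 7.63 CPM per kb) and Bid (14.3 ± 0.774) again came first, followed by Bad (7.24 ± 0.562), Bbc3 (6.63 ± 0.647) and Bcl2l11 (6.08 ± 0.583), then Bmf (1.03 ± 0.211) and Bik (0.138 ± 0.0417). In KO libraries Bbc3 overlapped with both Bad and Bcl2l11, so its place there is not resolved, while every Bad value lay above every Bcl2l11 value. By this length no other neighbours among the 7 tested genes overlapped, and in WT libraries none did. With the longest transcript as the length the KO level of Bbc3 was 7.76 and that of Bcl2l11 9.70 CPM per kb. The order of these 2 means in KO libraries therefore depends on the length used. By the longest transcript the WT levels of Pmaip1 (35.8 ± 3.26 CPM per kb) and Bid (32.5 ± 4.02) overlapped in their SD ranges. Pmaip1 had the higher WT mean by either length, but its separation from Bid depends on the length used. Bbc3 made up 8.28, 9.67 and 11.02% of the summed length-scaled level of the 8 genes in KO_339, KO_340 and KO_345, against 1.73, 2.06 and 2.69% in WT_341, WT_343 and WT_344. That sum itself was 69.2 ± 8.23 CPM per kb in KO and 71.2 ± 1.46 CPM per kb in WT libraries, a difference within the spread between libraries. The Bid share was 20.7 ± 1.49% in KO and 31.06 ± 3.59% in WT libraries.

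**Figure D2:**
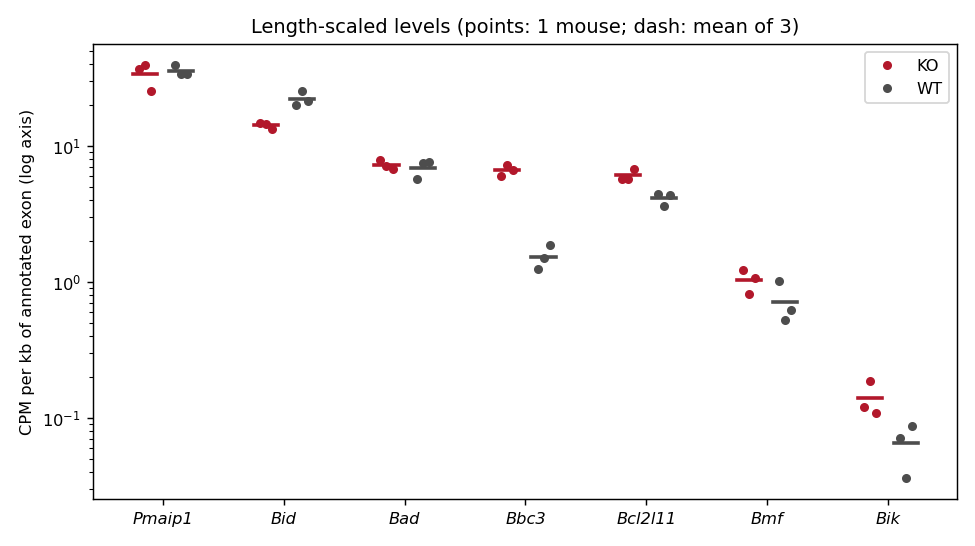
Length-scaled level (vertical log axis, CPM per kb of annotated exon) of the 7 tested BH3-only genes in KO (red, left) and WT (grey, right) libraries; points are mice and dashes means of 3. Bbc3 averages 6.63 in KO and 1.53 in WT, which brings it into the range of Bad and Bcl2l11 in KO libraries.

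The start-site windows of the genes were read from RefSeq (GRCm38.p6), which gave 250 bases before to 50 after each start for Bbc3, Bcl2l11, Bid, Bad, Bmf and Hrk. Windows were searched on both strands for GTAAACA, the core that FOXO factors bind. They were also searched for the p53 response element, a pair of adjacent half-sites with no spacer, which reads alike on both strands. With at most 1 mismatch in each half-site, 0.244% of 27025 genes and 0 of the 6 members held a p53 element. With at most 3 mismatches over the 20 bases, a rule widened after the strict one found none, 1.63% of genes did, and Bbc3 was the member that did. Both rules required the C and the G that bound each half-site core, while the bases between them could mismatch. GTAAACA was in a window of 4.05% of genes and of 2 members, Bbc3 and Bcl2l11. A gene counts if any of its windows holds a match, and both members had more than 1 window, which gives more chances. Per window the share was 3.65% for GTAAACA and 1.38% for the p53 element with at most 3 mismatches. Pmaip1 and Bik were not among the genes searched. The windows that hold a match are printed because they belong to the genes that rose, with the matches in capitals: the p53 element in the first, which begins 97 bases before the start, and GTAAACA or its reverse complement in the others, 167 and 227 bases before the start.
Bbc3, chr7:16309333-16309632, forward strand: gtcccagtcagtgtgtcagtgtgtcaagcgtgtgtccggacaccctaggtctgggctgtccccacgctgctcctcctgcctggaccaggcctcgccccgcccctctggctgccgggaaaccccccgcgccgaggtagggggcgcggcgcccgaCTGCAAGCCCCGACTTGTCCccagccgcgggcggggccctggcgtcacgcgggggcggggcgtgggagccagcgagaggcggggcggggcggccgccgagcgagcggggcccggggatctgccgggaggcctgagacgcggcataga
Bbc3, chr7:16310011-16310310, forward strand: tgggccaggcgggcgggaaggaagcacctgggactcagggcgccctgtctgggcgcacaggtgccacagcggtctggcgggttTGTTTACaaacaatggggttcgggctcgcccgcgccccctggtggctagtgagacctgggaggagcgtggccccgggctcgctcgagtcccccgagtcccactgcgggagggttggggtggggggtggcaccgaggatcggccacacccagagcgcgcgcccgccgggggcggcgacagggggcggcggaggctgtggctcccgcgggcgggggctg
Bcl2l11, chr2:128125788-128126087, forward strand: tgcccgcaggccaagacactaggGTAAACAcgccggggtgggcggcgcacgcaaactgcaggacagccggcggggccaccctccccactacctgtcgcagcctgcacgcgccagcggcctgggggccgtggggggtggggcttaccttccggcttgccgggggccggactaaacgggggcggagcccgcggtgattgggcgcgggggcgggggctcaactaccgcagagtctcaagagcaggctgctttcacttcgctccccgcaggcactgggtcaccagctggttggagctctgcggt
The p53 element of Bbc3 has 2 mismatches in its first half-site and 1 in its second. A match describes letters in a window, and binding was not measured. Small nuclear RNA genes, which Integrator processes, were not found within any member; the nearest annotated ones were 15.8 kb from Hrk, 36.0 kb from Bcl2l11 and 73.5 kb from Bbc3, and 294.8 to 551.3 kb from the rest.

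The factors known to act on these genes were read one by one. Trp53, which encodes p53, was at 94.5 ± 10.8 CPM in KO and 92.06 ± 6.94 CPM in WT libraries (log2 change 0.04, adjusted p = 0.795, edgeR's quasi-likelihood test), and its relative Trp73 was too scarce to test. The p53 targets Cdkn1a, which encodes the cell cycle inhibitor p21, and Mdm2, which encodes the ligase that degrades p53, rose with Bbc3: Cdkn1a was at 67.5 ± 10.7 CPM in KO and 11.8 ± 2.73 CPM in WT (5.70-fold) and Mdm2 at 213 ± 11.9 CPM in KO and 111 ± 4.68 CPM in WT (1.92-fold; adjusted p = 0.0011 for both). Of 24 p53 targets outside the BH3-only genes, 16 were called higher and 1 lower, with a median log2 change of 1.03. Over all tested genes 16.0% were higher and 19.9% lower, with a median log2 change of 0.01. Foxo3, whose protein drives Bcl2l11 and Bbc3 when growth factors are withdrawn, stood at 59.5, 64.1 and 60.8 CPM in KO, against 39.01, 39.9 and 45.7 CPM in WT libraries, and rose 1.48-fold (adjusted p = 0.0052, same test). Ddit3, which encodes the stress factor CHOP, known to raise Bcl2l11, was at 15.6 ± 0.992 CPM in KO and 15.2 ± 2.52 CPM in WT libraries (adjusted p = 0.851, same test). E2f1 fell (log2 change -0.32, adjusted p = 0.0199, same test), a call lost with upper-quartile scaling, with library totals only, without WT_344 and without any single KO library. Snai2, the repressor of Bbc3 in blood progenitors, was scarce (0.179 ± 0.118 CPM in KO and 0.0533 ± 0.0362 CPM in WT) and did not pass (adjusted p = 0.117). Of the 13 such factors tested, 2 were higher (Foxo3 and Nr3c1) and 2 lower (Atf4 and E2f1). That is 15.4% each way, near the 16.0% and 19.9% of all tested genes. Nothing particular to the list is read from these counts. The number called was 1 without any single KO library, 2 without WT_343 or WT_344 and 8 without WT_341. It was 7 with limma-voom and sample quality weights, and 2 higher and 0 lower with upper-quartile or total scaling. The Nr3c1 and Atf4 calls were both lost without any single KO library or WT_343. That of Nr3c1 was also lost without WT_344 and with no low-count filter. That of Atf4 was also lost with upper-quartile or total scaling, a filter of 1 CPM, or limma-voom and sample quality weights.

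**Figure D3:**
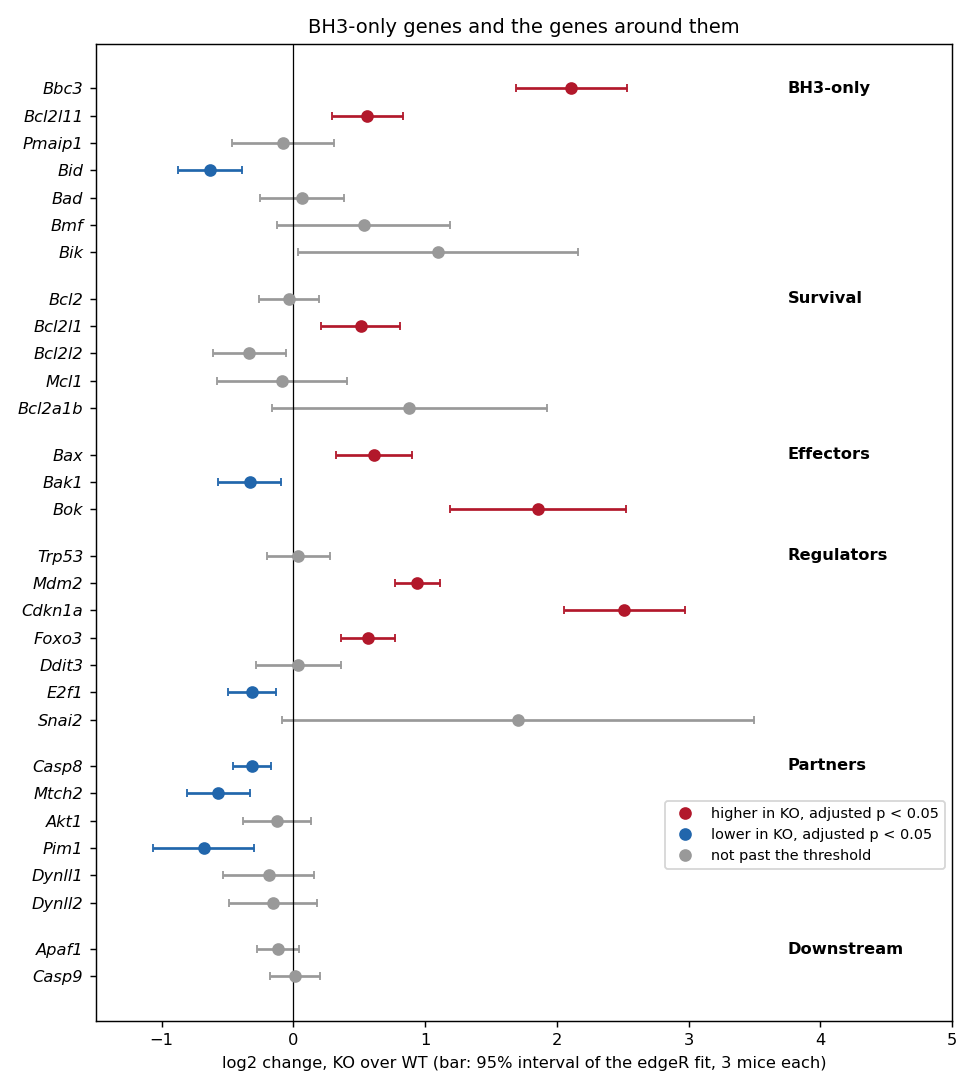
Log2 change, KO over WT (horizontal axis; points with 95% intervals of the edgeR fit, 3 mice per genotype), for the 7 tested BH3-only genes and genes around them, coloured by call. Bbc3 (2.11), Cdkn1a (2.51) and Bok (1.86) lie furthest to the right of the genes called, and Pim1 (-0.68) and Bid (-0.63) furthest to the left.

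The partners that BH3-only proteins act on moved both ways. Among the survival proteins 1 of 7 tested genes was called, beside 35.9% of all tested genes. The called gene, Bcl2l1, encodes BCL-XL and had 32.2 ± 4.94 CPM in KO and 22.6 ± 1.65 CPM in WT libraries (log2 change 0.51, adjusted p = 0.021, edgeR's quasi-likelihood test). Its call was lost without KO_345 (adjusted p = 0.0526) or WT_343 (adjusted p = 0.055). Bcl2 was at 60.5 ± 1.83 CPM in KO and 61.9 ± 6.98 CPM in WT (adjusted p = 0.805), and Mcl1 at 443 ± 55.1 CPM in KO and 469 ± 147 CPM in WT (adjusted p = 0.771), with WT_341 at 637 CPM far above the other WT libraries. Bcl2l2 and Bcl2a1b did not pass (log2 changes -0.33 and 0.88, adjusted p = 0.0597 and 0.157), though Bcl2l2 did without WT_344 (-0.44, adjusted p = 0.0404) and with DESeq2 (-0.34, adjusted p = 0.037). Of the pore formers, Bax rose (58.4 ± 1.54 CPM in KO, 38.2 ± 6.49 CPM in WT, 1.53-fold, adjusted p = 0.0116, same test) and the low-level gene Bok rose 3.62-fold to 1.55 ± 0.198 CPM in KO, against 0.428 ± 0.132 CPM in WT (adjusted p = 0.00523, same test). Bak1 fell (99.5 ± 5.46 CPM in KO, 125 ± 15.1 CPM in WT, log2 change -0.33, adjusted p = 0.0386, same test), a call lost without any single library but WT_341, and with upper-quartile scaling, library totals only or a filter of 1 CPM.

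Genes that handle single members were read beside them. For Bid, the protease gene Casp8 (100.01 ± 1.27 CPM in KO, 124 ± 3.11 CPM in WT) and Mtch2, the mitochondrial receptor of truncated BID (61.4 ± 2.23 CPM in KO, 91.3 ± 11.9 CPM in WT), both fell (log2 changes -0.31 and -0.57, adjusted p = 0.0106 and 0.00802, edgeR's quasi-likelihood test). The Casp8 call was lost with upper-quartile scaling (adjusted p = 0.0523) and without KO_339 (adjusted p = 0.0536). For Bad, 0 of 16 genes of its kinases and 14-3-3 anchors were higher and 2 lower, beside 16.0% and 19.9% of all tested genes. The number lower was 0 without KO_339, KO_340 or WT_344 and 7 without WT_341. Pim1, a cytokine-induced survival kinase, was 1 of the 2 lower genes (99.1 ± 11 CPM in KO, 159 ± 35.2 CPM in WT, log2 change -0.68, adjusted p = 0.0186, same test). The Pim1 call was lost without KO_339, KO_340 or WT_344. Akt1 did not pass (adjusted p = 0.390), except without WT_341 (adjusted p = 0.0177). For Bcl2l11 and Bmf, the dynein light chain genes Dynll1 and Dynll2 did not pass (log2 changes -0.19 and -0.16, adjusted p = 0.343 and 0.416), though Dynll1 did without WT_341 (-0.35, adjusted p = 0.0148). Further down, Apaf1 and Casp9, the core of the apoptosome, did not pass (adjusted p = 0.201 and 0.910).

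Some marker lists differed between the genotypes alongside these changes, and in bulk libraries a shift in the mix of cells and a change of RNA per cell cannot be told apart. Over all tested genes 16.0% were higher and 19.9% lower, and the counts of each list are read beside those shares. Of 17 listed mature neutrophil markers, 5 were called higher and 0 lower. Their summed level was 47365 to 62088 CPM in KO and 12682 to 39558 CPM in WT libraries, and no marker was at 0 in all libraries. The largest terms of that sum, named for their level, were S100a9 (13717 ± 2080 CPM in KO, 6935 ± 3597 CPM in WT) and S100a8 (10948 ± 1950 CPM in KO, 6179 ± 2664 CPM in WT). Neither was called (adjusted p = 0.0628 and 0.0671, edgeR's quasi-likelihood test), so the sum does not describe the list evenly. Megakaryocyte markers had 6 of 9 higher, with summed levels of 104 to 155 CPM in KO and 45.1 to 66.9 CPM in WT libraries, again with no marker at 0 in all libraries. Among 10 progenitor markers 4 were higher, including the stem cell regulators Gata2 and Meis1, and 2 lower, including Mpo. The sum of the 10 was 6313 to 7194 CPM in KO and 11707 to 15640 CPM in WT libraries. Most of that sum was Mpo (5474 ± 412 CPM in KO, 12317 ± 1902 CPM in WT), so it describes that gene more than the list.
The mean log2 CPM of the neutrophil list was 9.58, 9.23 and 9.21 in KO_339, KO_340 and KO_345, against 9.02, 7.46 and 8.23 in WT_341, WT_343 and WT_344. Bmf followed that order among WT libraries, with WT_341 the highest of both. Bbc3 did not, since WT_341, close to the KO libraries by the neutrophil list, had the lowest Bbc3 level of all. With the neutrophil level as a covariate in the same test, Bbc3 kept its call (log2 change 2.33, adjusted p = 0.0094), Bcl2l11 (0.40, adjusted p = 0.129) and Bid (-0.42, adjusted p = 0.0573) lost theirs, and Bmf went to -0.13 (adjusted p = 0.759). Among the other genes named above, Cpsf3l, Bcl2l1, Bak1, E2f1, Nr3c1, Atf4, Casp8, Mtch2, Pim1 and Gpr137 also lost their calls in that fit, and Bax, Bok, Mdm2, Cdkn1a, Foxo3 and Bcl2l13 kept theirs. The neutrophil level itself differs between the genotypes, so the covariate and genotype are partly confounded. The part of megakaryocyte and progenitor markers in these results was not tested.

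**Figure D4:**
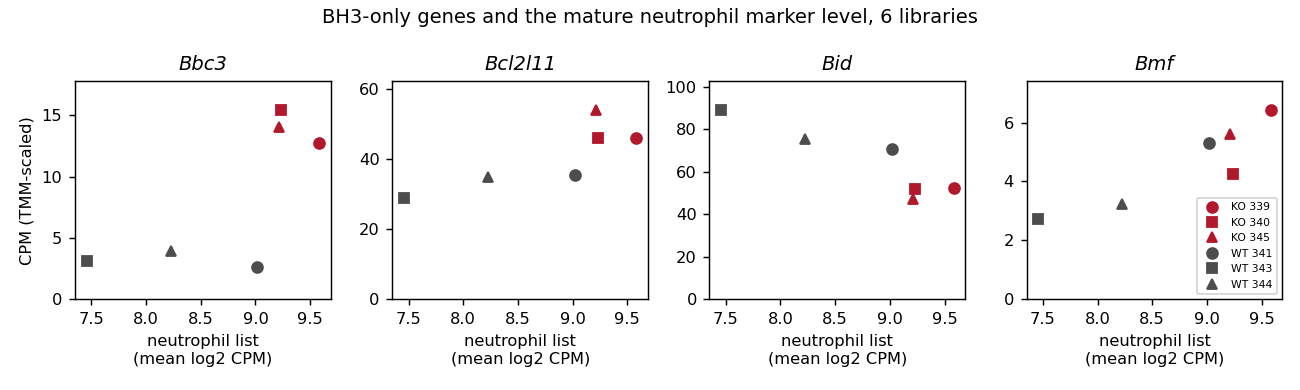
Level of 4 BH3-only genes (vertical axis, TMM-scaled CPM) against the mean log2 CPM of 17 mature neutrophil markers (horizontal axis) in the 3 KO (red) and 3 WT (grey) libraries, 1 point per mouse. The WT_341 point at 9.02 sits low for Bbc3 (2.64 CPM) and high among WT libraries for Bmf (5.30 CPM).

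The genes whose log2 CPM ran most like each member over the 6 libraries were named by Pearson's r as a description. Since 2 groups of 3 libraries dominate such values, many genes reach a high r: 523 genes exceeded 0.95 with Bbc3, 485 with Bcl2l11 and 1743 with Bid, against 8 with Pmaip1, 16 with Bad, 81 with Bik and 92 with Bmf. The closest to Bbc3 were Gsdmc4, Grcc10 and Ier3 (r of 0.999, 0.998 and 0.997), all higher in KO. Those closest to Bcl2l11 were Rltpr, Gpr56 and Elmsan1 (0.999, 0.998 and 0.997), and those closest to Bid were Sprtn, Hadha and Hat1 (each r over 0.999). Pmaip1 ran closest to Rnls, Ggta1 and Zfp819 (0.978, 0.969 and 0.969), and Bad to Loh12cr1, Sept9 and Atp6v1f (0.995, 0.985 and 0.982). For Bik these were Naif1, Mir1938 and Mef2b (0.997, 0.989 and 0.987), and for Bmf Zcwpw1, Heca and Tspear (0.990, 0.990 and 0.986). None of the genes closest to these 4 members was called under the reported processing. Mir1938 passed in 7 of 15 alternatives, Zcwpw1 and Heca in 2 each and Tspear in 1 of 14, and the others in none.

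**Figure D5:**
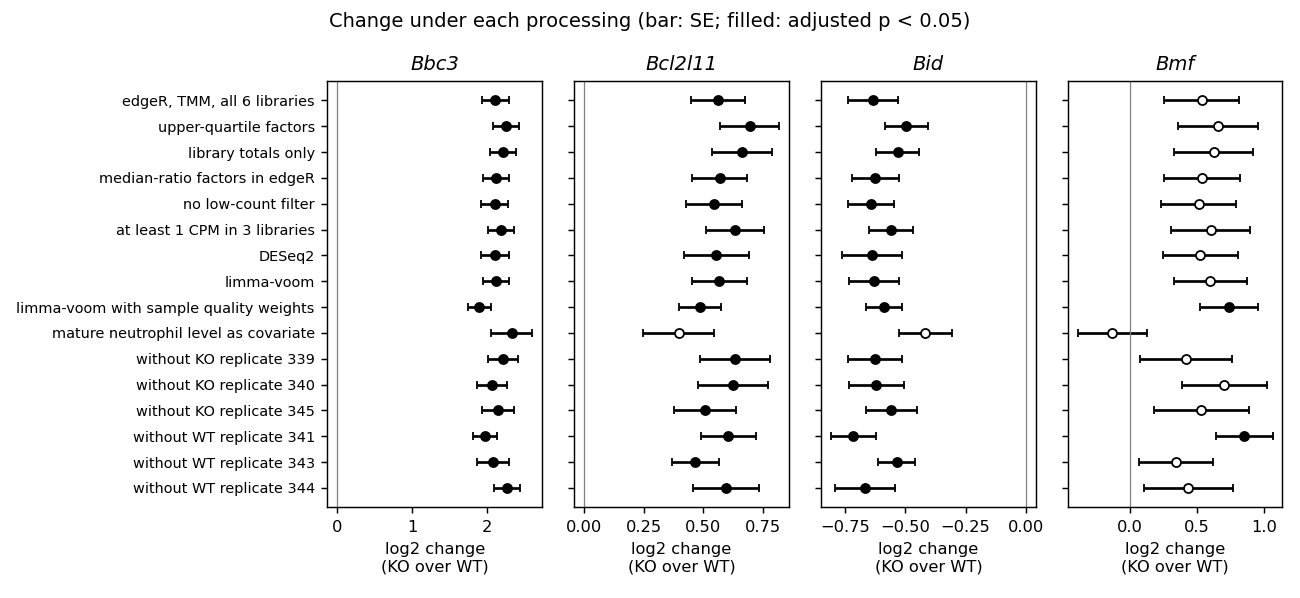
Log2 change, KO over WT (horizontal axis; points with SE), of 4 BH3-only genes under the reported processing (top) and 15 alternatives; filled points passed an adjusted p of 0.05. Bbc3 is filled throughout between 1.90 and 2.33, and Bcl2l11 and Bid are open only with the neutrophil covariate.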

How the data were processed

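Per the labels, total RNA of individual mice was made into strand-specific messenger RNA libraries and sequenced as paired reads. The authors deposited raw counts, with a row for each gene symbol and a column for each mouse. Per the submitters' processing notes the build is mm10 and the tools are FastQC, Trimmomatic, STAR and HTSeq, named without versions; the annotation, the strand option and the handling of multiply mapped reads are not stated there. Groups came from the titles, and no column belonged to other samples. Library pairs differed by a chi-square of 58.7 to 1132 per degree of freedom, so none was deposited again under another name.

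The test was run in edgeR 4.0.16 under R 4.3.3, using filterByExpr (minimum count 10, minimum total 15), TMM, glmQLFit with robust estimation and glmQLFTest, with Benjamini-Hochberg adjustment over all tested genes and a threshold of 0.05. Alternatives used DESeq2 1.42.0, limma 3.58.1, other scalings and filters, a covariate and each library left out. On simulated counts (15587 genes, KO against WT) the test called 0 of 50 genes at a true 1.25-fold difference, 10 of 49 at 1.5-fold, 26 of 50 at 2-fold and 37 of 49 at 4-fold, with 8 false calls among 81. That false share is above the threshold of 0.05. Only 200 genes were set to change there, while 5659 were called in the data. With fewer changed genes the adjustment is stricter, so these rates do not give the power of the test on the data. Gene positions and exon lengths come from GENCODE M21 (GRCm38, which mm10 also names). Positions are 1-based.

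The members, the gene lists, the alternatives and the named genes were chosen with earlier results of these data known. Named genes are the 8 members, a fixed set around them (1 gene of it is not reported here) and the 3 genes with the highest Pearson's r of log2 CPM (prior count 2) with each member, leaving out unnamed gene models. Bcl2l13 and Gpr137 were added because their loci overlap members, and genes named as called within a list, such as Nr3c1 and Atf4, after their values were seen. Of the marker lists, erythroid (0 higher and 1 lower of 10), B cell (0 and 0 of 8), T and NK cell (2 and 1 of 8), macrophage (1 and 0 of 9) and stromal genes (2 and 0 of 8) are not described further. The shares over all tested genes were 16.0% higher and 19.9% lower.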

Additional observations from a re-analysis of the deposited data

How the results depend on the processing

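Over 15 alternatives Bbc3 kept its direction and its call, with log2 changes of 1.90 to 2.33 and adjusted p-values of 6.05e-28 (DESeq2) to 0.0111 (without KO_339). With single libraries left out, the log2 change ranged from 1.97 to 2.27 for Bbc3, 0.47 to 0.63 for Bcl2l11, -0.72 to -0.54 for Bid and 0.34 to 0.85 for Bmf, and the number of BH3-only genes called was 3 to 4. With the neutrophil covariate that number was 1, the count of all genes called was 1424 against 5659, and Bcl2l11 (0.40, adjusted p = 0.129) and Bid (-0.42, adjusted p = 0.0573) were no longer called; the cause was not tested. Bmf passed with limma-voom and sample quality weights (0.74, adjusted p = 0.021) and, in edgeR's quasi-likelihood test, without WT_341 (0.85, adjusted p = 0.0126). The other alternatives changed no call among the members. Over all 15 alternatives the estimates of Pmaip1 (-0.26 to 0.12), Bad (-0.07 to 0.30) and Bmf (-0.13 to 0.85) took both signs. Pmaip1 and Bad were called in none of them. Bik had no value with the filter of 1 CPM. Calls over all genes ranged from 2302 to 7879 with 1 library left out (leaving out KO_339 gave 2302, KO_340 3316, KO_345 2966 and WT_344 3270). With the longest transcript as length, the KO levels of Bid and Bad were 20.9 and 12.1 CPM per kb and the WT levels of Bid, Bad and Bcl2l11 32.5, 11.6 and 6.57. No paired analysis was possible because mouse numbers in the labels are not shared between KO and WT. At 23 to 39 counts in KO and 9 to 20 in WT libraries, depth limits Bik, and Hrk was not measurable.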

Other observations

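A related set of proteins carries a BH3-like stretch but serves mainly in autophagy. Becn1, which encodes Beclin 1, fell in KO libraries (79.9 ± 2.49 CPM in KO, 112 ± 5.96 CPM in WT, adjusted p = 0.00466, edgeR's quasi-likelihood test), as did the hypoxia-linked mitophagy gene Bnip3 (7.34 ± 0.353 CPM in KO, 11.1 ± 1.38 CPM in WT, adjusted p = 0.0146). Its relative Bnip3l, which clears mitochondria from maturing red cells, rose (133 ± 1.61 CPM in KO, 110 ± 10.03 CPM in WT, adjusted p = 0.0357), a call lost without any single library but WT_341, with no low-count filter (adjusted p = 0.0628) and with the neutrophil covariate (adjusted p = 0.408). The Bnip3 call was lost without KO_339 (adjusted p = 0.0527) or KO_340 (adjusted p = 0.0522) and with the covariate (adjusted p = 0.194). Of the proteins that leave the mitochondrion in apoptosis, the genes for cytochrome c (Cycs, log2 change -0.66, adjusted p = 0.0112) and Smac (Diablo, -0.70, adjusted p = 0.00486) both fell, and the Cycs call was lost with the covariate (adjusted p = 0.124). These 5 genes were named after their values were seen.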
